A study of Mus musculus with 8 samples.

Results

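The 10 genes described here encode the TGF-beta ligands (Tgfb1, Tgfb2, Tgfb3), their receptors (Tgfbr1, Tgfbr2, Tgfbr3) and the latent TGF-beta binding proteins (Ltbp1, Ltbp2, Ltbp3, Ltbp4), out of 19057 genes named on the array. They were chosen by name, and their probes were kept where the detection p, the share of negative control beads at least as bright as the probe, was under 0.05 on at least 4 of 8 arrays. Of their 28 probes 23 were kept, and 9 of the 10 genes had a kept probe; Ltbp2 had none. Illumina bead arrays measured expression in progenitor cells of fat from C3H/HeOuJ mice, all lean, 3 months old and, by the sample titles, on chow. Cells of the stromal vascular fraction of epididymal white fat, which is what remains after collagenase has freed the adipocytes, were sorted as CD45- CD31- Gp38+ PDGFRα+ and divided by surface CD9, a tetraspanin. CD9high was set against CD9low, with 4 samples each, and every sample lay on its own array. One label field names high CD9 expression for the CD9low samples too, and the titles and cell type labels were followed. Whether a sample is 1 animal or a pool is not given by the labels, and the p-values therefore reflect the spread among these 8 samples, which may be technical.

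TGF-beta is made as a precursor whose cleaved propeptide stays wrapped around the ligand and keeps it latent. In most cells that latent complex is bound to a latent TGF-beta binding protein, which ties it to fibrillin microfibrils and fibronectin in the matrix until integrins, proteases or thrombospondin set the ligand free. Free ligand binds the type II receptor, which activates the type I receptor, and SMAD proteins carry the signal to the nucleus. The type III receptor presents ligand, TGF-beta2 above all. In adipose tissue TGF-beta is known for holding back adipocyte differentiation and for driving matrix deposition by fibroblast-like progenitors.

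Promoter sequences are shown for 3 members to set the ligand genes beside each other and beside Ltbp1, the member with a negative fold change. They come from RefSeq (build GRCm38.p6), which matched 8 of the 10 members; Tgfb3 and Tgfbr3 had no entry. Each is the 250 bases before the first listed start site, 5′ to 3′, with capitals at matches to the motifs searched on both strands.
Tgfb1 promoter (chr7:25686752-25687001, plus strand): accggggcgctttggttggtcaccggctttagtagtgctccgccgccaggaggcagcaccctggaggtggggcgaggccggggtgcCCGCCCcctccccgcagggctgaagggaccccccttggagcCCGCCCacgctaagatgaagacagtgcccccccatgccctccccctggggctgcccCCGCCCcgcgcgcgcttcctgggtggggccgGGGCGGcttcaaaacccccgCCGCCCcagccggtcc
Tgfb2 promoter (chr1:186705990-186706239, minus strand): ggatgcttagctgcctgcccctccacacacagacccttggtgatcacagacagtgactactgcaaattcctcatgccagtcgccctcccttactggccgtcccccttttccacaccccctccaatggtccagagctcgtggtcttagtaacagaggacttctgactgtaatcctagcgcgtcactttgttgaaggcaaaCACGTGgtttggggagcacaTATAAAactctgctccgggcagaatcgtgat
Ltbp1 promoter (chr17:75005279-75005528, plus strand): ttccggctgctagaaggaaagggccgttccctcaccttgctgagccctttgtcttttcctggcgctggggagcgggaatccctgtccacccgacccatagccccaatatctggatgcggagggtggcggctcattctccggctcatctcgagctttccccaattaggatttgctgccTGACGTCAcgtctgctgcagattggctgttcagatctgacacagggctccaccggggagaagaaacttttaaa

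The motifs were the GC box GGGCGG, bound by Sp1 family factors, the TATA box TATAAA, the E-box CACGTG, the cAMP response element TGACGTCA and the SMAD palindrome GTCTAGAC, none of which overlapped another in these 3 windows. Tgfb1 held 5 GC boxes and none of the other 4 motifs. Tgfb2 held no GC box, but a TATA box 26 to 31 bases and an E-box 46 to 51 bases before the start. Ltbp1 held a cAMP response element 66 to 73 bases before its first start site. Among 32851 promoter windows of the same length, 32.7% held a GC box, 12.4% a TATA box, 6.02% an E-box, 1.55% a cAMP response element and 0.167% the SMAD palindrome. The windows of Ltbp3 and Tgfbr2 held none of the 5 motifs, and neither did those of the second start sites of Tgfbr1 and Ltbp1. These matches describe the letters of the windows, and no binding was measured.

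Of the 9 genes tested, Tgfb3 rose in CD9high and 0 fell (limma, adjusted p under 0.05 over 10724 genes); of all genes tested, 1.69% were called, 1.13% higher and 0.559% lower in CD9high. At an unadjusted p under 0.05 the members numbered 3 (Tgfb2, Tgfb3 and Ltbp1), where the share of all genes was 10.7%. The members' log2 fold changes of CD9high over CD9low had a median of 0.38 and 8 of 9 were above 0, where all genes had a median of -0.04 and 45.6% above 0. The 8 included Tgfbr3, at 0.00029 and below 0 in 9 of 23 alternative analyses. They also included Tgfb1, a dim gene detected on 3 CD9high arrays and 1 CD9low array. The fractions did not overlap for 4 of the 9 (Tgfb2, Tgfb3 and Ltbp3 higher, Ltbp1 lower in CD9high), against 7.69% of all genes, 3.92% higher and 3.78% lower. In bulk samples such as these, fewer cells of a type and less RNA per cell cannot be told apart. Values below are normalized log2 intensities of the brightest kept probe of each gene; they are compared between fractions and not between genes, since probes differ in brightness.

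**Figure D1:**
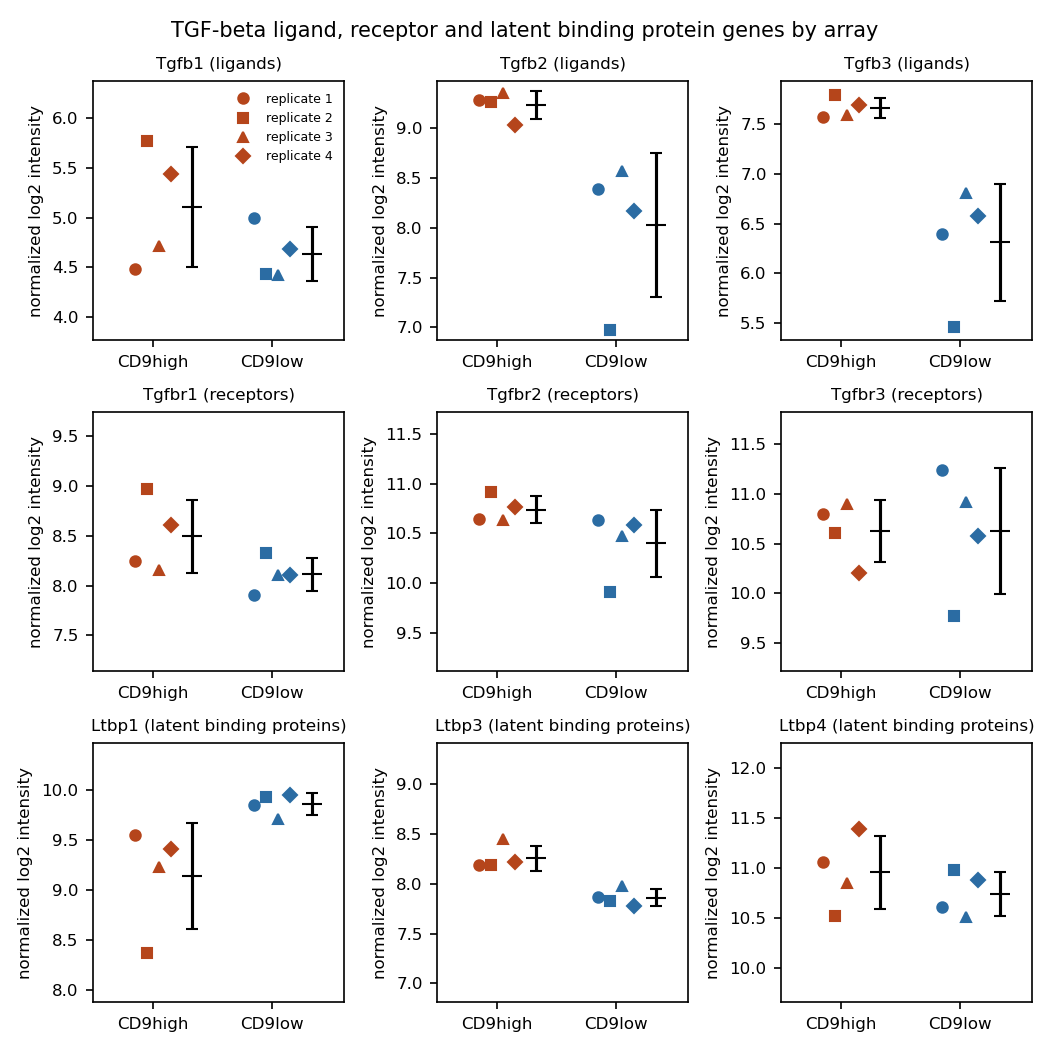
Normalized log2 intensity (y axis) of the 9 tested genes on each array, CD9high at the left and CD9low at the right of each panel, with symbols for the replicate number and black bars for mean ± SD (n = 4 per fraction). Every panel spans the same range on its y axis; Tgfb2, Tgfb3 and Ltbp3 lie higher in CD9high with no overlap, and Ltbp1 lies lower.

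Among the ligands, Tgfb3 stood at 7.57, 7.79, 7.59 and 7.69 in CD9high replicates 1 to 4, against 6.39, 5.46, 6.81 and 6.58 in CD9low replicates 1 to 4. The CD9high arrays lay close together and all above CD9low, where replicate 2 was the lowest. Its mean was 7.66 ± 0.10 in CD9high and 6.31 ± 0.59 in CD9low (SD, n = 4 each), so that CD9high was 1.35 higher on the log2 scale, or 2.55-fold (SE 0.29 in log2, adjusted p = 0.0495). Tgfb3 encodes TGF-beta3, the isoform best known from palate fusion and wound repair. The difference was 1.43 on slide 1, which held replicates 1 to 3 of both fractions, and 1.12 on slide 2, which held replicate 4 of both. The call was marginal. It held in 6 of 23 alternative analyses, with adjusted p from 0.00769 to 0.290 and log2 fold changes from 1.03 to 1.54, and it was lost on slide 1 alone (adjusted p = 0.222). Without CD9low replicate 2 it was 1.07 (adjusted p = 0.0235), and without any other single array the adjusted p was between 0.0663 and 0.137.

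Tgfb2, which encodes the isoform that depends most on the type III receptor for binding, had 9.28, 9.26, 9.35 and 9.04 in CD9high, against 8.39, 6.97, 8.57 and 8.17 in CD9low. Again no array overlapped and CD9low replicate 2 was the lowest. The means were 9.23 ± 0.14 in CD9high and 8.03 ± 0.72 in CD9low (SD, n = 4 each), a log2 fold change of 1.21 (SE 0.33, 95% interval 0.47 to 1.95), which did not pass the test (adjusted p = 0.139). Without CD9low replicate 2 the log2 fold change was 0.86 (adjusted p = 0.0652), and with array quality weights it was 0.93 and passed (adjusted p = 0.0288). Slide 1 gave 1.32 and slide 2 gave 0.86.

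Tgfb1, the isoform most widely made and the one leukocytes secrete in quantity, was dim. With its single probe detected on 3 CD9high arrays and 1 CD9low array it only just met the filter, and met it mainly through CD9high. It had 4.49, 5.77, 4.71 and 5.44 in CD9high, against 5.00, 4.43, 4.43 and 4.68 in CD9low. The fractions overlapped, with CD9high replicates 2 and 4 at the top. The log2 fold change was 0.47 (SE 0.31, 95% interval -0.22 to 1.16, adjusted p = 0.653). Its size moved with single arrays: it was 0.25 without CD9high replicate 2 and 0.67 without CD9high replicate 1. Over 22 alternative analyses it ran from 0.15, with array quality weights, to 0.79, and passed in 0.

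Genes of the receptors did not pass the test in any of the 3 cases, and at an unadjusted p under 0.05 the count was 0 as well. Tgfbr1 encodes the type I receptor kinase that phosphorylates SMADs. Its values were 8.24, 8.97, 8.16 and 8.60 in CD9high, against 7.91, 8.32, 8.11 and 8.11 in CD9low. The ranges overlapped, with CD9high replicate 2 highest, and the log2 fold change was 0.38 (SE 0.24, 95% interval -0.15 to 0.92, adjusted p = 0.638), against 0.22 without CD9high replicate 2. Its other 3 probes gave 0.10, 0.19 and 0.93; on the probe that gave 0.93, CD9low replicate 2 stood at 5.07 while the other CD9low arrays lay between 6.76 and 7.65.

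Tgfbr2, the ligand-binding type II receptor, had 10.64, 10.92, 10.63 and 10.77 in CD9high, against 10.64, 9.91, 10.47 and 10.59 in CD9low. All but CD9low replicate 2 lay within a narrow band. The log2 fold change was 0.34 (SE 0.23, 95% interval -0.18 to 0.85, adjusted p = 0.663), and it was 0.17 without CD9low replicate 2 (adjusted p = 0.884). Its other 2 tested probes gave 0.39 and 0.72, and both were below 0 on slide 2 (-0.51 and -0.49).

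Tgfbr3, which encodes betaglycan, the type III co-receptor, had 10.80, 10.60, 10.90 and 10.21 in CD9high, against 11.24, 9.78, 10.92 and 10.57 in CD9low. The means were equal to the second decimal at 10.63 ± 0.31 in CD9high and 10.63 ± 0.63 in CD9low (SD, n = 4 each), with a 95% interval of -0.72 to 0.72 for the difference. Its direction was not settled: without CD9low replicate 2 the log2 fold change was -0.28 (adjusted p = 0.833). The second probe gave 0.23 (SE 0.38). Over the 3 receptor genes all 9 tested probes had log2 fold changes above 0, from 0.00029 to 0.93, but not on each slide. On slide 2 both Tgfbr3 probes (-0.37 and -0.68), a Tgfbr1 probe (-0.14) and the Tgfbr2 probes at -0.51 and -0.49 lay below 0. The rest lay above 0 there. Probes also share their samples, and 0 of the 9 passed the test over all 18085 tested probes, of which 1.22% were called.

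**Figure D2:**
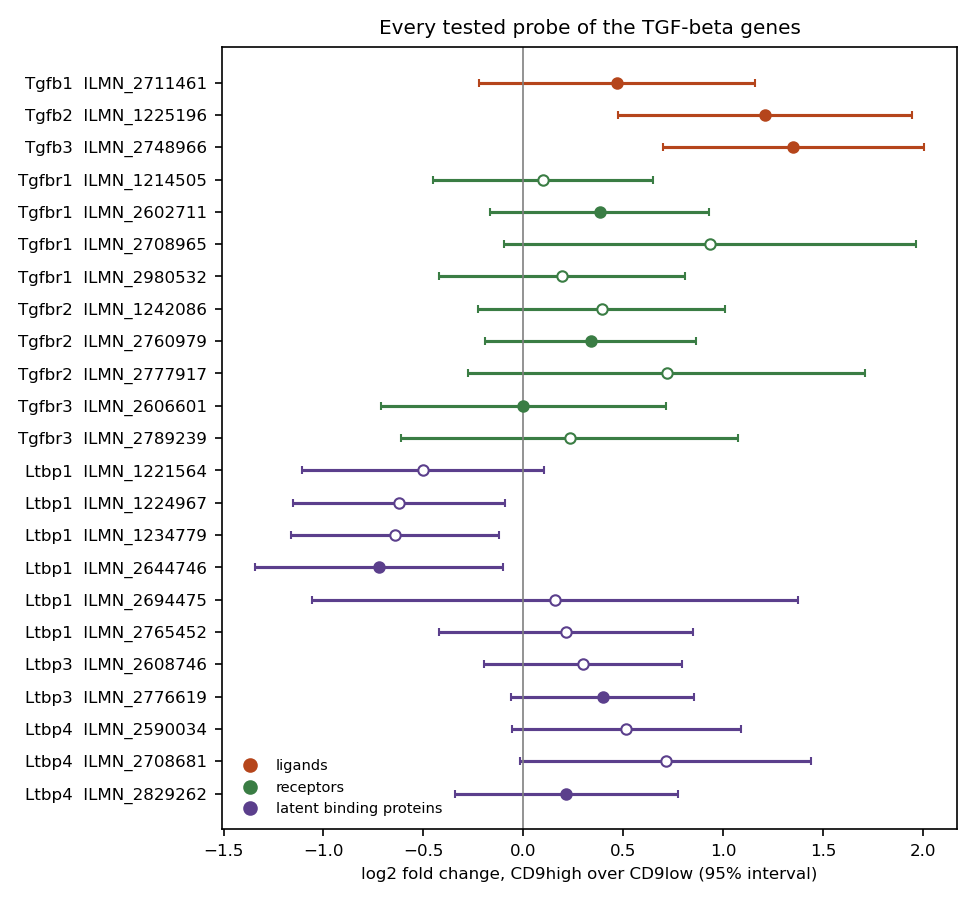
Log2 fold change of CD9high over CD9low with its 95% interval (x axis) for each of the 23 tested probes, from a fit over all tested probes (n = 4 per fraction); filled points mark the probe used for the gene. The ligand probes Tgfb2 and Tgfb3 lie farthest to the right, and 4 of 6 Ltbp1 probes lie left of 0.

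Of the 3 tested latent binding protein genes 0 passed the test and 1, Ltbp1, had an unadjusted p under 0.05. Ltbp1, which encodes the form that anchors latent TGF-beta to fibronectin and fibrillin matrix, had 9.56, 8.37, 9.23 and 9.41 in CD9high, against 9.85, 9.94, 9.71 and 9.95 in CD9low. All CD9low arrays lay above all CD9high arrays, and CD9high replicate 2 was the lowest. The means were 9.14 ± 0.53 in CD9high and 9.86 ± 0.11 in CD9low (SD, n = 4 each), and the log2 fold change was -0.72 (SE 0.28, 95% interval -1.33 to -0.11), with an unadjusted p of 0.0255 and an adjusted p of 0.369. It was -0.78 on slide 1 and -0.55 on slide 2, and -0.46 without CD9high replicate 2 (adjusted p = 0.573).

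The 6 tested Ltbp1 probes disagreed. Beside the one just described, 3 gave -0.50, -0.62 and -0.64. The other 2 gave 0.16 and 0.21, each with an interval that spans 0. The probe at 0.21 was dim, above background on 6 of 8 arrays. The probe at 0.16 had a spread unlike the rest, with CD9high replicate 4 at 7.39 and CD9low replicate 2 at 7.17 while the other arrays lay between 8.65 and 9.44. A mean of all tested probes put Ltbp1 at -0.35 (adjusted p = 0.594). RefSeq lists 2 start sites for Ltbp1. By the platform annotation the tested probes belong to 2 RefSeq transcripts. Those of one gave -0.50 and 0.16, and those of the other gave -0.72, -0.64, -0.62 and 0.21. Which further transcripts each probe reads was not analysed here.

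Ltbp3, needed in mice for skeletal growth and for secretion of latent TGF-beta, had 8.19, 8.19, 8.45 and 8.21 in CD9high, against 7.87, 7.83, 7.98 and 7.77 in CD9low. The fractions did not overlap although they differed by little, with means of 8.26 ± 0.13 in CD9high and 7.86 ± 0.09 in CD9low (SD, n = 4 each). The log2 fold change was 0.40 (SE 0.20, adjusted p = 0.528), and it was 0.38 on slide 1 and 0.44 on slide 2. The second probe gave 0.30 (SE 0.23) with overlap.

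Ltbp4, whose product also guides elastic fibre assembly, had 11.06, 10.52, 10.85 and 11.39 in CD9high, against 10.60, 10.98, 10.51 and 10.88 in CD9low. The ranges overlapped, and the log2 fold change was 0.21 (SE 0.25, 95% interval -0.33 to 0.76, adjusted p = 0.801). It was 0.069 without CD9high replicate 4, 0.36 without CD9high replicate 2 and 0.14 without CD9low replicate 3. The other 2 probes gave larger values of 0.52 (SE 0.26) and 0.71 (SE 0.33), neither past the test. Ltbp2, which binds fibrillin but not latent TGF-beta, was not well above background on any array with either of its 2 probes, and no fold is given. Just outside the filter lay a probe each of Ltbp3, above background on 2 arrays, and Ltbp1, above background on 1; just inside lay the Tgfb1 probe with 4.

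Whether members of a class differed in their fold change was asked with the difference between their log2 values within each array, for 9 pairs, by an exact two-sided permutation test with a smallest possible p of 0.0286. The size of such a difference depends on the probes, and only its change between fractions carries meaning. Ltbp1 minus Ltbp4 reached down to -2.15 in CD9high, where all 4 arrays lay below those of CD9low at -1.04 to -0.76, a change of -0.94 (SE 0.17) with no overlap (exact permutation p = 0.0286, adjusted over the 9 pairs 0.129). Ltbp1 minus Ltbp3 lay between 0.18 and 1.37 in CD9high and between 1.73 and 2.18 in CD9low, a change of -1.12 (SE 0.28) with the same exact permutation p and adjusted p. Both pairs sit at the smallest p that the design allows. With only 2 of the 9 pairs at that p, no adjusted p could fall under 0.05. Missing the threshold therefore says nothing about the size of these changes.

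Tgfb2 and Tgfb3 differed least among ligands, with a change of -0.14 (SE 0.15, exact permutation p = 0.343, adjusted 0.514) and values of 1.34 to 1.76 in CD9high and 1.51 to 1.99 in CD9low. On CD9low replicate 2, where both genes were at their lowest, their difference of 1.51 lay near that of the other arrays. Tgfb1 minus Tgfb3 changed by -0.88 (SE 0.39, exact permutation p = 0.0857, adjusted 0.257) and Tgfb1 minus Tgfb2 by -0.74 (SE 0.47, exact permutation p = 0.171, adjusted 0.386), with overlap in both. Tgfb1 was not above background on 3 of 4 CD9low arrays, so these 2 differences rest on values near background; with an offset of 50, Tgfb1 minus Tgfb3 was -0.81 with no overlap (exact permutation p = 0.0286, adjusted 0.0857). The 3 receptor pairs and Ltbp3 minus Ltbp4 overlapped too, with adjusted exact permutation p from 0.411 to 0.943.

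**Figure D3:**
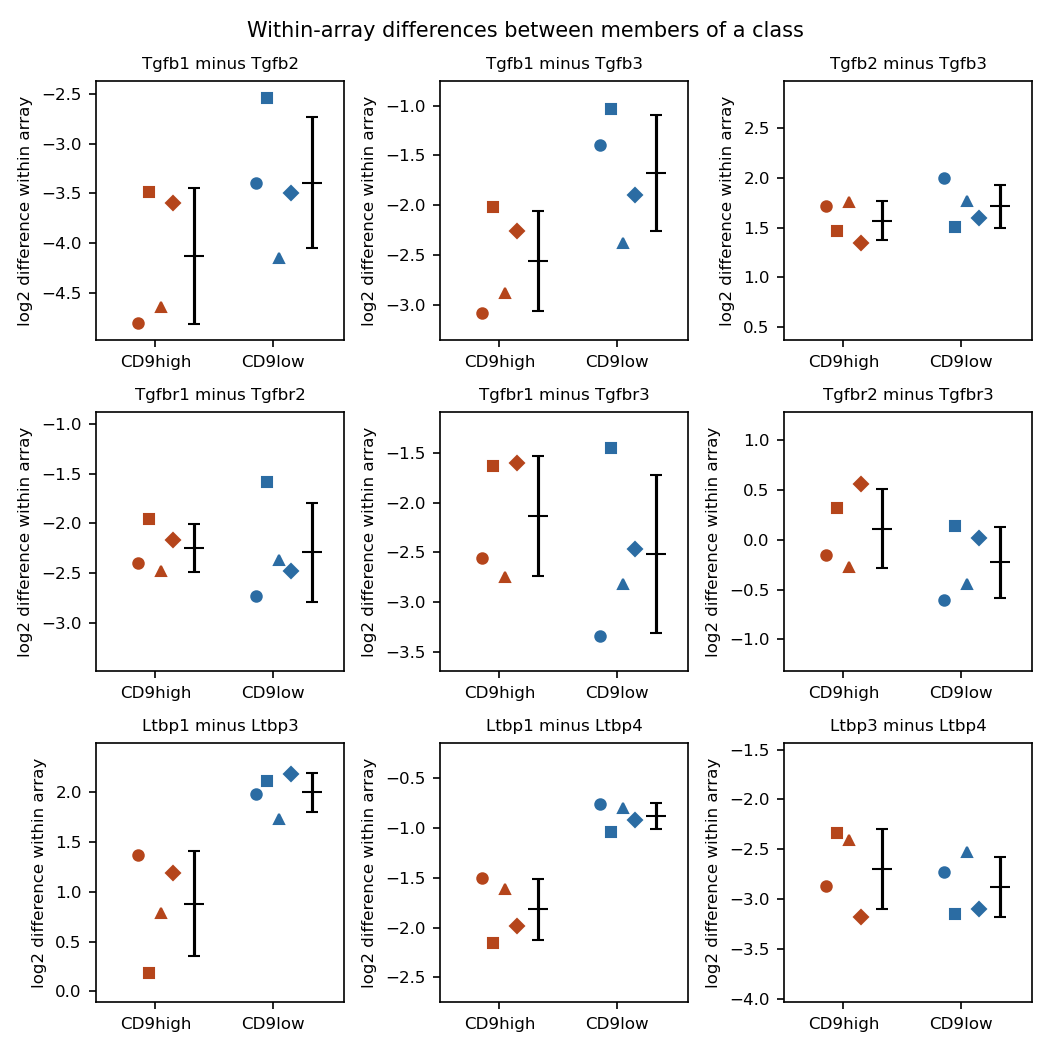
Difference between the log2 intensities of 2 members of a class within each array (y axis), CD9high at the left and CD9low at the right, with symbols for replicates 1 to 4 (circle, square, triangle, diamond) and black bars for mean ± SD (n = 4 per fraction). Ltbp1 minus Ltbp3 and Ltbp1 minus Ltbp4 separate the fractions, and the other 7 pairs overlap.

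Around the members, 55 of 73 other genes of the pathway were tested, from 6 lists also chosen with earlier results of these data known. Of these 3 rose (Tgfbi, Ccn2 and Cd109), 0 fell and 52 did not pass the test, where 1.13% of all genes rose and 0.559% fell. At an unadjusted p under 0.05 the count was 14, where the share of all genes was 10.7%. The median over the 55 was 0.04 on the log2 scale, and 30 lay above 0. Among 9 genes known to respond to TGF-beta, 2 rose, with a median of 0.37. Tgfbi, a secreted matrix protein named for its induction by TGF-beta, stood at 9.68 ± 0.38 in CD9high and 6.77 ± 0.82 in CD9low (SD, n = 4 each), which differ by 2.91 in log2 (SE 0.39, adjusted p = 0.00528). It passed in 21 of 23 alternatives and missed the threshold without replicate 1 of both fractions (adjusted p = 0.0862) and without replicate 3 of both (adjusted p = 0.0751). Ccn2, a matricellular protein, stood at 11.40 ± 0.21 in CD9high and 9.04 ± 1.14 in CD9low (SD, n = 4 each), a change of 2.37 (SE 0.48, adjusted p = 0.0379) that held in 11 of 23 alternatives. Without any single array other than CD9low replicate 2 the adjusted p was between 0.0884 and 0.116. Of the 9 response genes 4 had an unadjusted p under 0.05, and 7 did not pass. Among these 7, Timp1 differed by 1.42 (SE 0.41, adjusted p = 0.164) and Bhlhe40 by 0.96 (SE 0.39, adjusted p = 0.395), each with overlap. Postn differed by 0.37 (SE 0.22) with no overlap. Acta2 differed by 0.17 (SE 0.38), Col1a1 by -0.17 (SE 0.38), Snai2 by -0.21 (SE 0.23) and Tagln by -0.45 (SE 0.23).

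Of 8 accessory and decoy receptor genes 1 rose, where 1.13% of all genes did. Cd109, a surface protein that binds TGF-beta and restrains its receptors, stood at 6.95 ± 0.37 in CD9high and 5.02 ± 0.80 in CD9low (SD, n = 4 each), which differ by 1.93 in log2 (SE 0.38, adjusted p = 0.0361). Its probe was detected on all CD9high arrays but only 2 CD9low arrays, so that the size depends on the background setting: with an offset of 50 it was 1.21 (adjusted p = 0.0395). The call held in 11 of 22 alternatives, and without any single array other than CD9low replicate 2 the adjusted p was between 0.0685 and 0.118. The next smallest p on that list was that of Tgfbrap1, a receptor-associated protein (-0.45, SE 0.29, adjusted p = 0.648). Of 9 SMAD and feedback genes 0 passed and 3 had an unadjusted p under 0.05, where 10.7% of all genes did. Pmepa1, a feedback inhibitor induced by the pathway, differed by 1.80 (SE 0.40, adjusted p = 0.0525) and Skil, a SMAD corepressor, by 0.86 (SE 0.23, adjusted p = 0.131). Smad3 differed by -0.57 (SE 0.21, adjusted p = 0.326) and the inhibitory Smad7 by -0.57 (SE 0.29, adjusted p = 0.534). The fractions did not overlap for Pmepa1 and Skil (higher in CD9high) and for Smad3 and Smad7 (lower). That was 44.4% of the 9 genes, against 7.69% of all genes and 18.2% of the 55 pathway genes tested. This list had the highest share. The others had 33.3% (response genes), 16.7% (matrix anchors), 12.5% (accessory receptors), 6.25% (activators and proteases) and 0% (activin branch).

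Genes that process, hold or free latent TGF-beta showed no call among 16 tested, with a median of 0.01. At an unadjusted p under 0.05 the count was 1, where the share of all genes was 10.7%. The smallest p were those of Plau, which encodes urokinase (-0.68, SE 0.29, adjusted p = 0.433), and the gelatinase gene Mmp2 (-0.45, SE 0.22, adjusted p = 0.525). Of the 6 tested matrix anchors and ligand-binding proteoglycans 0 passed and 1 had an unadjusted p under 0.05: Fmod, which encodes fibromodulin, a TGF-beta-binding proteoglycan, differed by 1.31 (SE 0.31, adjusted p = 0.0693), followed by Bgn (biglycan, 0.35, SE 0.22, adjusted p = 0.632). In the activin branch 0 of 7 passed and 4 had an unadjusted p under 0.05, where 10.7% of all genes did. Fstl3, an activin antagonist, differed by 1.02 (SE 0.32, adjusted p = 0.227) and the receptor gene Acvr2b by -1.68 (SE 0.60, adjusted p = 0.322). For Acvr2b the fractions overlapped and the probe was detected on 3 CD9high arrays. CD9low replicate 2 stood at 9.14 for it, and the other CD9low arrays between 6.25 and 7.79.

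**Figure D4:**
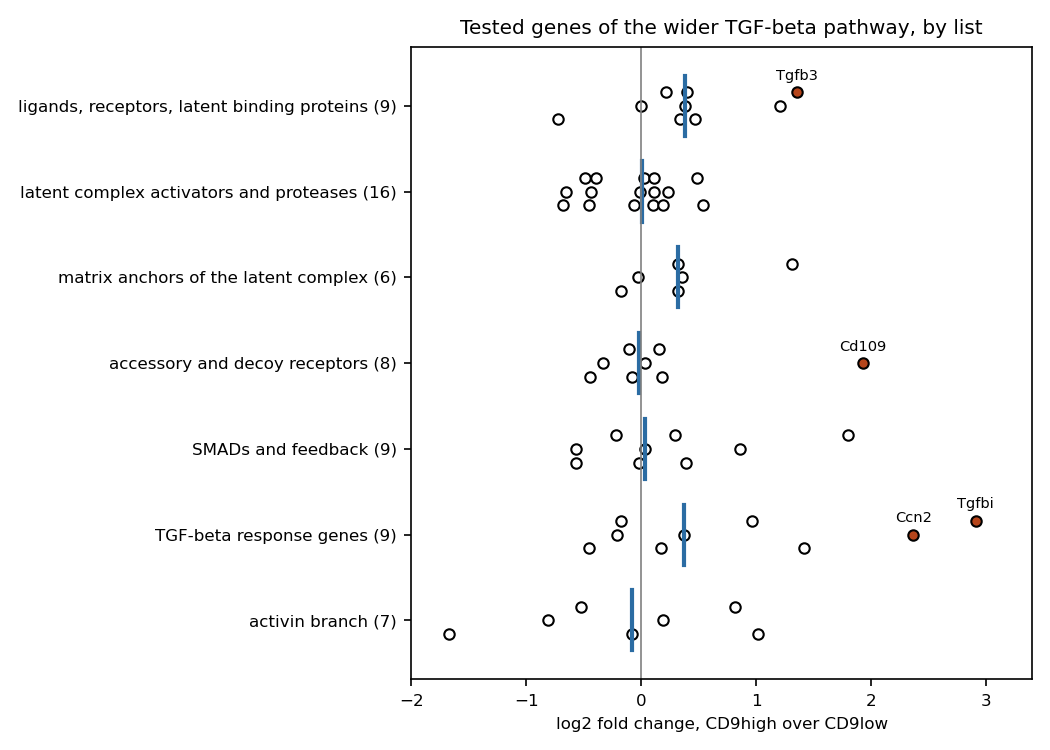
Log2 fold change of CD9high over CD9low (x axis) for each tested gene of the 9 members and of 6 lists of other pathway genes (number tested in brackets); filled points passed an adjusted p of 0.05 and blue bars are list medians. The 4 filled points are Tgfb3, Cd109, Ccn2 and Tgfbi, and each lies above 1.

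Of 10723 other tested genes, the 3 whose mean-centred log2 values lay nearest to those of Tgfb3 over the 8 arrays were Zfp704 (root mean square difference 0.138), Cyb561 (0.179) and Kctd9 (0.182). They encode a zinc finger protein, a cytochrome b561 and a BTB-domain protein. Their log2 fold changes were 1.49, 1.34 and 1.43, near the 1.35 of Tgfb3, as nearness over these arrays requires.

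Values of the whole series that bear on these results are few. CD9low replicate 2 stood apart: its mean correlation with the other CD9low arrays was 0.863 over the tested genes, where the remaining arrays had 0.917 to 0.948 within their fraction. It was the lowest CD9low array for 14 of the 23 member probes, against 33.8% of all tested genes. Cd9 itself differed by 3.63 (SE 0.28), which checks the sort. Of 49 markers of stromal and other cell types 35 were tested, 0 passed and 2 had an unadjusted p under 0.05, where 10.7% of all genes did. The 2 were Pdgfrb at -0.68 (SE 0.29, adjusted p = 0.426) and Notch3 at -0.82 (SE 0.37, adjusted p = 0.459). Below 0 lay 26 of the 35, where 5830 of all 10724 genes did. They held all 7 pericyte and smooth muscle markers (median log2 fold change -0.32), 5 of 6 endothelial markers (median -0.41) and 7 of 9 leukocyte markers (median -0.14). They also held 5 of 7 stromal progenitor markers (median -0.05) and 2 of 3 adipocyte markers (median -0.07). All 3 mesothelial markers lay above 0 (median 0.06). On slides 1 and 2 the medians were -0.49 and 0.06 for endothelial and -0.28 and 0.12 for leukocyte markers. For pericyte and smooth muscle markers they were -0.46 and -0.24. For mesothelial markers they were 0.10 and 1.63. On slide 2, which is replicate 4 of each fraction, Msln differed by 1.66, Upk3b by 1.63 and Krt8 by -0.14. Pdgfra and Pdpn, which encode the antigens kept by the gate, were detected on every array, with log2 fold changes of 0.10 (SE 0.23) and -0.05 (SE 0.21). Of the genes whose antigens the gate excluded, Pecam1 (CD31) was detected on every array, with a log2 fold change of -0.40 (SE 0.47), and Ptprc (CD45) on 2 CD9high and 3 CD9low arrays, with -0.18 (SE 0.47). Summed stromal progenitor markers (7 of 8 tested) ran from 14.36 to 14.72 in CD9high and from 14.52 to 14.86 in CD9low. Summed leukocyte markers (9 of 11 tested) ran from 8.91 to 11.87 in CD9high and from 8.45 to 12.26 in CD9low on the log2 scale. Summed endothelial markers (6 of 8 tested) ran from 8.36 to 9.97 in CD9high and from 8.27 to 11.53 in CD9low, and those of pericytes and smooth muscle (7 of 8 tested) from 10.97 to 11.52 in CD9high and from 11.16 to 12.19 in CD9low. Those of mesothelium (3 of 8 tested) ran from 6.42 to 7.41 in CD9high and from 5.44 to 6.99 in CD9low, and those of adipocytes (3 of 6 tested) from 6.30 to 8.08 in CD9high and from 6.43 to 7.99 in CD9low. The defining markers Wt1, Krt19, Plin1, Kdr and Cd68 had no tested probe. All these ranges overlap between the fractions, and the part of such cells in the members' values was not tested.

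**Figure D5:**
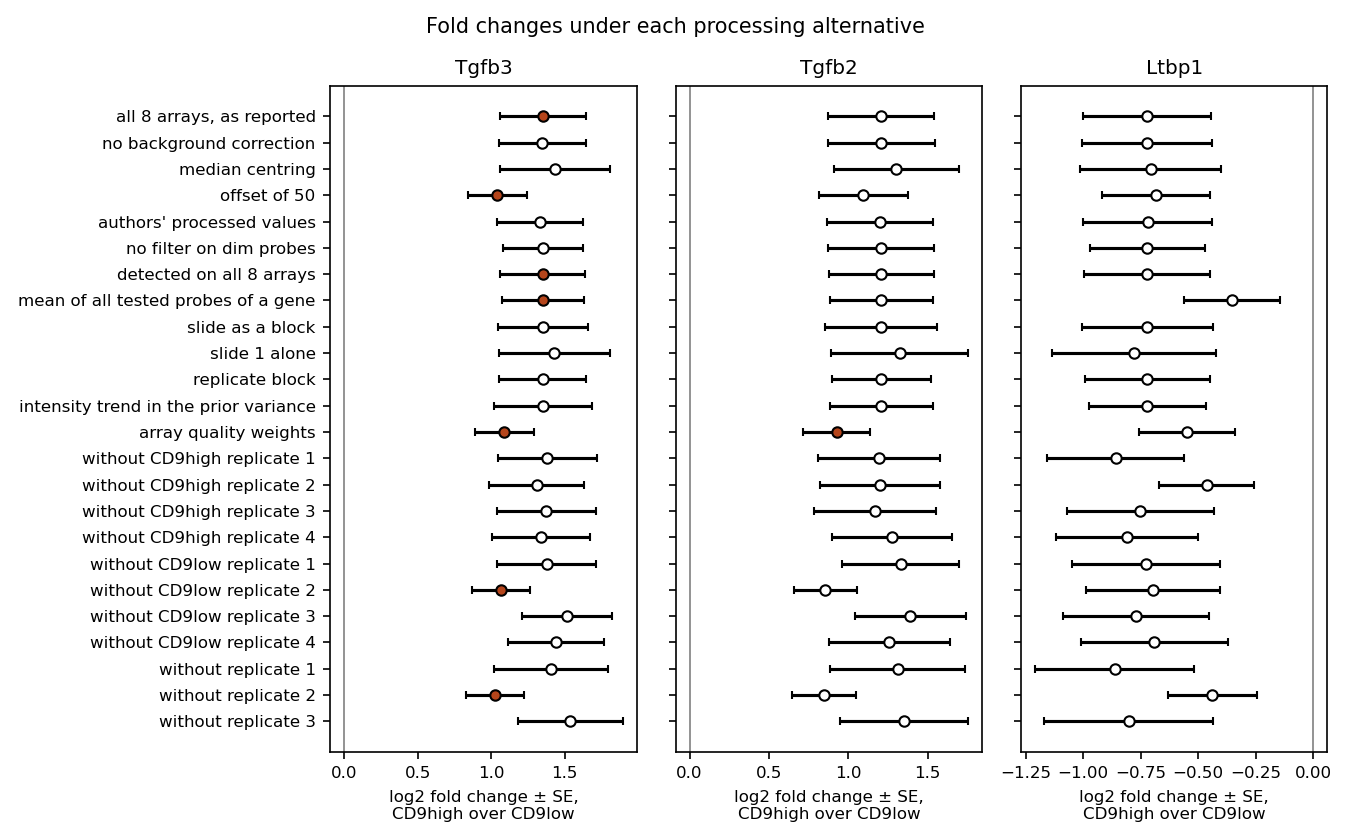
Log2 fold change ± SE of CD9high over CD9low (x axis) for Tgfb3, Tgfb2 and Ltbp1 as reported (top row) and under 23 alternative analyses; filled points passed an adjusted p of 0.05. Tgfb3 and Tgfb2 stay above 0 and Ltbp1 below 0 throughout, while Tgfb3 passes in 6 alternatives, Tgfb2 in 1 and Ltbp1 in 0.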

How the data were processed

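Per the file headers, the authors' main table gives an intensity and a detection p-value for each of 45281 probes on 8 arrays. Whole-transcriptome amplification (Ovation Pico) and biotin labelling (Encore BiotinIL) preceded hybridisation, per the labels' protocols. The submitters' processing notes name GenomeStudio. These deposited intensity values are not normalized across arrays; signals within 0.5 of 0 had a median detection p-value of 0.434, so a background had already been taken off. A second deposited table, of normalized linear intensity (medians 9.07 to 9.20), was used as an alternative. Between 41.1% and 51.1% of probes were detected per array. With 4 arrays per fraction, array number sets the precision.

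Probes were named from the platform annotation (34885 with 1 symbol, 18 with several, 10378 with none); the 10 members' symbols are all in the RefSeq table of GRCm38.p6. In R 4.3.3, limma 3.58.1 ran neqc (normexp background with inferred negative controls, offset 16, quantile normalization, log2), which acts on already subtracted values and compresses folds of dim genes. Probes with detection p under 0.05 on at least 4 of 8 arrays were kept, 18085 named probes of 10724 genes, with the brightest kept probe standing for a gene. The log2 values were fitted with lmFit and eBayes for CD9high over CD9low, with no block and Benjamini-Hochberg adjustment over all genes (threshold 0.05); the fit was tested on simulated data. Pairs of members were compared by exact permutation. Alternatives varied background, scaling, offset, filter, probe choice, blocks, array weights and left-out arrays. Members and lists were chosen with earlier results of these data known. Named genes are the members, Cd9 and the gate genes, and in each list those past the test and the 2 with the smallest p. The 3 nearest profiles to the member with the smallest p are named too. The 7 response genes that did not pass, Smad3, Smad7 and the markers with no tested probe were added after their values were seen.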

Additional observations from a re-analysis of the deposited data

Results flagged for a closer look

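Ltbp3 in CD9high replicate 3 stood at 8.45, while the other 3 CD9high arrays lay between 8.19 and 8.21, a gap of 0.891 of the range of the 4 arrays. This was the single sample found far from the others among 18 groups of 4 arrays (9 genes in 2 fractions), by a Dixon gap rule with which chance marks about 1 in 20 groups. The array did not stand out in CD9high on the second Ltbp3 probe (7.31, others 6.72 to 7.29), and leaving it out kept the Ltbp3 log2 fold change above 0 at 0.33 (adjusted p = 0.725).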

How the results depend on the processing

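The count of members past the test was 1 and fell to 0 with no background correction, median centring, the authors' processed values, no filter on dim probes, the slide as a block, slide 1 alone, the replicate block, an intensity trend or each probe on its own (Tgfb3 probe, adjusted p = 0.0580), and was 2 with array quality weights (Tgfb2 added). Leaving out arrays or replicate numbers gave 0 to 1 members, 0 to 6 other pathway genes (3 as reported) and 19 to 270 genes in all (181 as reported). Other pathway genes past the test numbered 1 with no filter on dim probes or slide 1 alone, 5 with the mean of all probes and 8 with array weights; all genes numbered 48 on slide 1 alone, 76 with the replicate block and 422 with array weights. The titles give both fractions the same replicate numbers without saying what a number marks. Deviations of same-numbered samples correlated at 0.22, -0.10, 0.18 and 0.16 for replicates 1 to 4. CD9low replicates 1, 3 and 4 but not 2 correlated best with their own number, as did CD9high replicates 1 and 3 but not 2 and 4. CD9high replicate 4 correlated best with CD9low replicate 2, at 0.27. Pairing is thus neither established nor refuted. With the replicate block the adjusted p was 0.134 for Tgfb3 and 0.0611 for Ccn2. The Tgfbr3 fold change of 0.00029 turned negative with median centring (-0.011), an offset of 50 (-0.0015), the authors' values (-5.2e-05) and array weights (-0.21), and ran from -0.28 to 0.21 with arrays left out. Ltbp1 was 0.16 and 0.21 on 2 of its probes. Among differences between members, Tgfb2 minus Tgfb3 was 0.053 with an offset of 50; with replicate numbers left out, Tgfbr1 minus Tgfbr2 ran from -0.051 to 0.18 and Ltbp3 minus Ltbp4 from -0.030 to 0.29. The causes were not tested. No other member reversed. Leaving out replicate number 4 is slide 1 alone. Weak signal over background limits Tgfb1 and Ltbp2.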
